A study of Rattus norvegicus with 2 samples.

Results

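The Slc12 genes encode the cation-chloride cotransporters, membrane proteins most of which move chloride together with sodium, potassium or both. The members described here were 6 genes, Slc12a2, Slc12a4, Slc12a5, Slc12a7, Slc12a8 and Slc12a9, taken by gene symbol from a deposited table of 25628 genes. The kidney genes Slc12a1 and Slc12a3 of the same family were read beside them. The question was how strongly each of these mRNAs was recovered with P180 (RRBP1), a membrane protein of the endoplasmic reticulum (ER) that binds ribosomes.

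To identify mRNAs that interact with P180 in neurons, RNA was sequenced after a streptavidin pull-down (RIP-seq) from primary cortical neurons of the rat. Neurons of the P180-GFPbio group expressed P180 fused to GFP and a tag that carries biotin. Neurons of the GFPbio control group expressed the tagged GFP without P180. Here 1 library of each group was analysed, named the P180 pull-down and the GFP control, so no difference has a replicate check and every comparison is between these libraries, not between conditions. Both groups carried an introduced construct, and P180 was collected through the tag of that construct. The study took its neurons from embryos of Wistar rats. The stage, the days in culture and the way the constructs were delivered are stated for its hippocampal cultures, but for the cortical ones not in the sources used here.

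Cotransporters are made at the ER, where ribosomes insert their many membrane-spanning segments as the chain grows. Slc12a2 encodes NKCC1, which brings sodium, potassium and chloride into the cell, and Slc12a5 encodes KCC2, the neuronal carrier that takes potassium and chloride out. The balance of the pair sets the chloride gradient of a neuron, and with it whether GABA excites or inhibits. KCC2 increases and NKCC1 loses weight as neurons mature. KCC1 (Slc12a4) and KCC4 (Slc12a7) are potassium-chloride carriers of other tissues and of glia as well as neurons, and take part in the control of cell volume. NKCC2 (Slc12a1) and NCC (Slc12a3) are the salt carriers of the kidney tubule. Slc12a8 and Slc12a9 are distant relatives of these carriers.

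The P180 pull-down held 6298343 counts and the GFP control 8428358. Counts were divided by size factors of 0.846 and 1.18, and the result is called the scaled count. A ratio is the scaled count in the P180 pull-down over that in the GFP control. Its 95% interval covers counting error only, with each count taken as independent. A sum of at least 10 counts was required, which left 11468 genes. They are called tested in the sense that their ratio was set against a fold of 2. For the ratio, a 0 was replaced by 3 counts, called the floor, which stands for 0.476 CPM in the P180 pull-down and 0.356 CPM in the GFP control. Rrbp1, which encodes P180, had 2541 counts in the P180 pull-down and 1334 in the GFP control, a ratio of 2.66 (2.49 to 2.85). Whether these counts include mRNA of the introduced P180 construct was not tested. The row EGFP_avitag, which counts the tag of both constructs, had a ratio of 0.470 (0.466 to 0.475). The GFP control, though deeper, was the less complex library, with 9345 genes detected against 13407, and mitochondrially encoded genes took 16.6% of its counts against 7.31%. Of the genes tested, 2343 (20.4%) had no count in the GFP control and 120 none in the P180 pull-down.

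The mRNAs of the neuronal chloride exporter KCC2, of KCC1 and of the distant relative Slc12a9 stood higher in the P180 pull-down, and that of NKCC1 did so by less than 2-fold. The interval of KCC4 included equal recovery. Of the 6 members, 5 reached the minimum of 10 counts and Slc12a8 did not. Of those 5, Slc12a4, Slc12a5 and Slc12a9 (3 genes) were at least 2-fold higher with P180 and 0 were at least 2-fold lower. Over all 11468 genes tested the shares were 40.6% higher and 19.9% lower. With so few members, 3 of 5 cannot be set apart from that background. A gene at 0 in the GFP control passed the minimum through its P180 counts alone. With the floor of 3 counts it was then always called higher. This held for 2343 of the 4652 genes called higher, for Slc12a9 and for such genes in the lists below. The 120 genes at 0 in the P180 pull-down were likewise always called lower. With at least 10 counts in each library, 2 of 4 members and 22.4% of all genes were higher. Genes with a symbol of the Slc form, the solute carriers, gave 119 of 211 higher (56.4%) and 22 lower (10.4%). After adding 1 to each scaled count, the median of the log2 ratios was 1.84 for the 5 members, 1.36 for the 211 solute carriers and 0.45 for all genes tested.

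**Figure D1:**
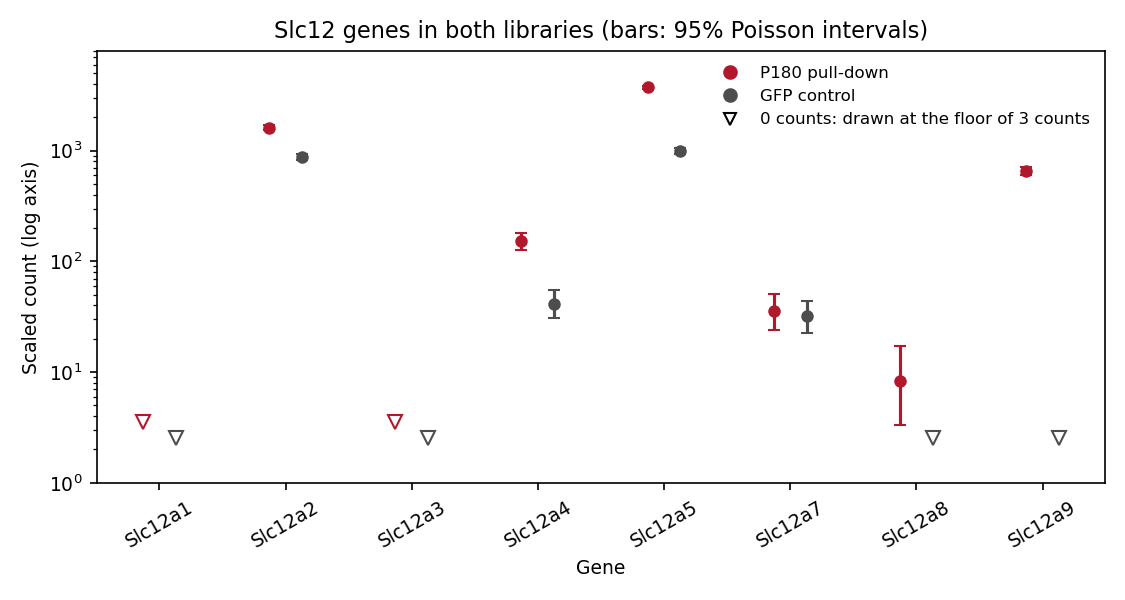
Scaled counts (log axis) of 8 Slc12 genes in the P180 pull-down (red) and the GFP control (grey), with 95% exact Poisson intervals; open triangles mark genes at 0, drawn at the floor of 3 counts. The points lie apart for Slc12a2, Slc12a4 and Slc12a5, overlap for Slc12a7, and Slc12a8 and Slc12a9 have a count in the P180 pull-down only.

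Slc12a5 (ENSRNOG00000018111), which encodes KCC2, had 3152 counts in the P180 pull-down and 1172 in the GFP control. The scaled counts were 3726 (95% exact Poisson interval 3597 to 3858) and 992 (936 to 1050). The intervals lie far apart, and the P180 pull-down is the higher one. The ratio was 3.76 (exact counting interval 3.51 to 4.02), or 1.91 on the log2 scale. That is above 69.3% of all genes tested, and rank 82 from the top among the 211 solute carriers. Where the scaled count averaged 1000 or more over both libraries, as for Slc12a5, a ratio of 2 or more was less common, at 18.8% of 1274 genes. That share is over all genes and was not computed for solute carriers alone, of which 56.4% were at least 2-fold higher at any depth. Solute carriers with such counts lay on both sides of 2, with Slc38a3 at 3.45 and Slc23a2 at 1.45.

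Slc12a2 (ENSRNOG00000015971), which encodes NKCC1, had 1360 counts in the P180 pull-down and 1039 in the GFP control. After scaling, these were 1607 (1523 to 1695) and 879 (826 to 934). The P180 pull-down was again higher beyond counting error, but by less than 2-fold, with a ratio of 1.83 (1.69 to 1.98). This placed Slc12a2 above 57.6% of the genes tested and at rank 122 among the solute carriers. The upper limit of its interval lies just under the fold of 2, so the failure to reach that fold rests on a narrow margin.

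The opposing chloride carriers were thus both higher in the P180 pull-down, and KCC2 more so. The ratio of Slc12a5 was 2.05 times that of Slc12a2 (exact conditional interval 1.85 to 2.29). This comparison sets the counts of 2 genes in the same libraries against each other, so it does not depend on how the libraries were scaled. It does not compare the levels of the 2 mRNAs, since counts of different genes were not brought to a common transcript length.

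The potassium-chloride carriers did not behave as one group. Slc12a4 (ENSRNOG00000019651), which encodes KCC1, had 128 counts in the P180 pull-down and 49 in the GFP control, or 151 (126 to 180) and 41.5 (30.7 to 54.8) after scaling. Its ratio was 3.65 (2.61 to 5.18), close to that of Slc12a5. The quotient of the ratios of Slc12a5 and Slc12a4 was 1.03, with an interval of 0.720 to 1.45 that leaves room for a difference in either direction. The scaled count of Slc12a4 averaged 96.4 over both libraries. Under 100, 65.5% of 4775 genes were at least 2-fold higher, and from 100 to under 1000 the share was 23.7% of 5419, so the background at this depth depends on which class is read.

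Slc12a7 (ENSRNOG00000016372), which encodes KCC4, had 30 counts in the P180 pull-down and 38 in the GFP control. The scaled counts were 35.5 (23.9 to 50.6) and 32.1 (22.8 to 44.1), and these intervals overlap almost whole. The ratio was 1.10 (0.660 to 1.83), and it was 0.935 when the libraries were scaled by their totals without mitochondrially encoded genes and EGFP_avitag. At this depth, no difference between the libraries was detectable beyond counting error.

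Slc12a2, Slc12a4, Slc12a5 and Slc12a7 formed 6 pairs, and in 4 of these the interval left out equal ratios. They were Slc12a5 and Slc12a4, each against Slc12a2 and against Slc12a7. The quotient was 2.00 (1.41 to 2.86) for Slc12a4 against Slc12a2, 3.41 (2.04 to 5.72) for Slc12a5 against Slc12a7 and 3.31 (1.78 to 6.17) for Slc12a4 against Slc12a7. For Slc12a2 against Slc12a7 it was 1.66 with an interval of 0.993 to 2.79. In order of ratio the carriers with counts in both libraries ran from Slc12a5 and Slc12a4, which could not be told apart, to Slc12a2 and Slc12a7, which could not be told apart either.

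**Figure D2:**
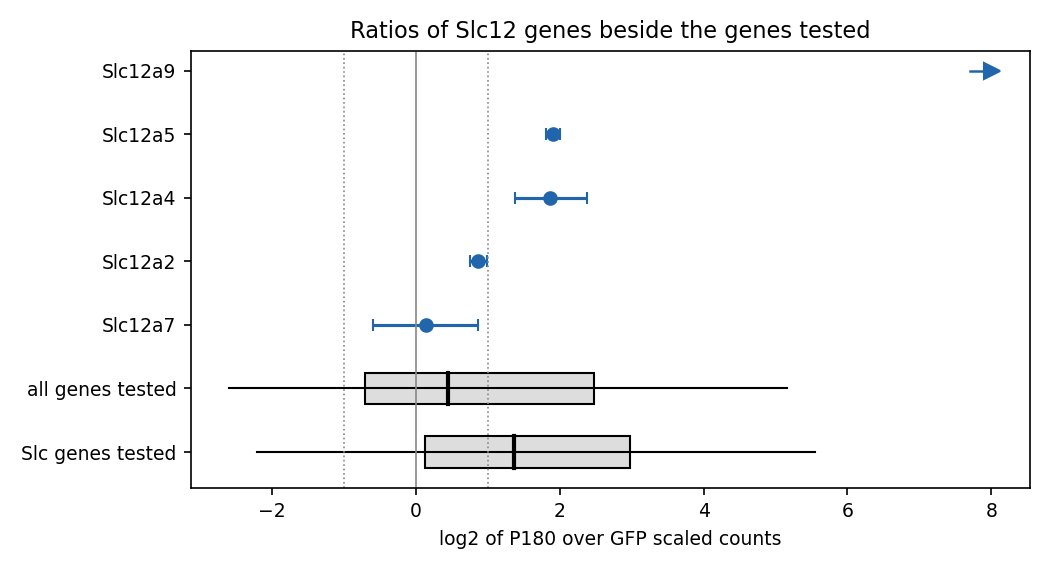
log2 ratio of P180 over GFP scaled counts for the 5 members tested (blue) with 95% exact counting intervals; the arrow is the value of Slc12a9 against the floor, drawn from its lower counting limit. The boxes below span the quartiles, with the median and lines from the 5th to the 95th percentile, of the 11468 genes and of the 211 Slc genes tested; dotted lines mark a fold of 2. Only Slc12a9 lies outside the lines of both sets.

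Slc12a9 (ENSRNOG00000048487) had the widest gap of the family. It had 552 counts in the P180 pull-down, a scaled count of 652 (599 to 709), and 0 counts in the GFP control. The exact Poisson upper limit of that 0 was a scaled count of 3.12. Against the floor its ratio was 257, and the lower limit of its exact counting interval was 208. Its ratio was at least 55.3 times that of Slc12a5 and at least 114 times that of Slc12a2 by the lower limits of the exact conditional intervals.

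Zeros in the GFP control were frequent among genes with few counts and rare at the depth of Slc12a9. Of 1921 genes with 20 to 49 counts in the P180 pull-down, 865 (45.0%) had none in the GFP control. Among the 2133 genes with at least 500 counts in the P180 pull-down, 4 had none in the GFP control (0.188%), and Slc12a9 was one of them. The others, named after their values were seen, were Yars1, a tyrosyl-tRNA synthetase (1011 counts), Sdc4, the proteoglycan syndecan 4 (822 counts), and Gria4, an AMPA receptor subunit (740 counts). Of the 46 solute carriers tested that were at 0 in the GFP control, Slc12a9 had the most counts in the P180 pull-down, and Slc1a5, a neutral amino acid transporter, came next with 386. By ratio Slc12a9 was rank 2 of the 211 solute carriers and above 99.9% of all genes tested.

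In the RefSeq genes of the GRCr8 assembly no gene overlaps Slc12a9. Its neighbours with a row in the table, also chosen after seeing the values, were low: Ephb4, an ephrin receptor, had 14 counts in the P180 pull-down and 0 in the GFP control, and Trip6, a LIM domain protein, 41 and 0. Both were at 0 in the same library as Slc12a9. Genes beside other members were at 0 there too, such as Lcat beside Slc12a4 (174 and 0 counts). Others were not, such as Ncoa5 beside Slc12a5 (243 and 301 counts). Slc12a4, Slc12a5 and Slc12a8 are each overlapped by a long noncoding RNA in RefSeq. Whether the counting used strand is not given in the sources used here, so reads of such an overlap could belong to either gene.

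Slc12a8 (ENSRNOG00000001792) had 7 counts in the P180 pull-down and 0 in the GFP control, under the minimum of 10 counts. Setting the GFP control at the floor gave Slc12a8 a value of 3.26, with a lower counting limit of 2.01. Of the 923 genes with 5 to 9 counts in the P180 pull-down, 698 (75.6%) were at 0 in the GFP control, so a 0 was the usual value at this depth. The kidney carriers Slc12a1 and Slc12a3 had 0 counts in both libraries, where the floor stands for 0.476 CPM (P180 pull-down) and 0.356 CPM (GFP control).

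**Figure D3:**
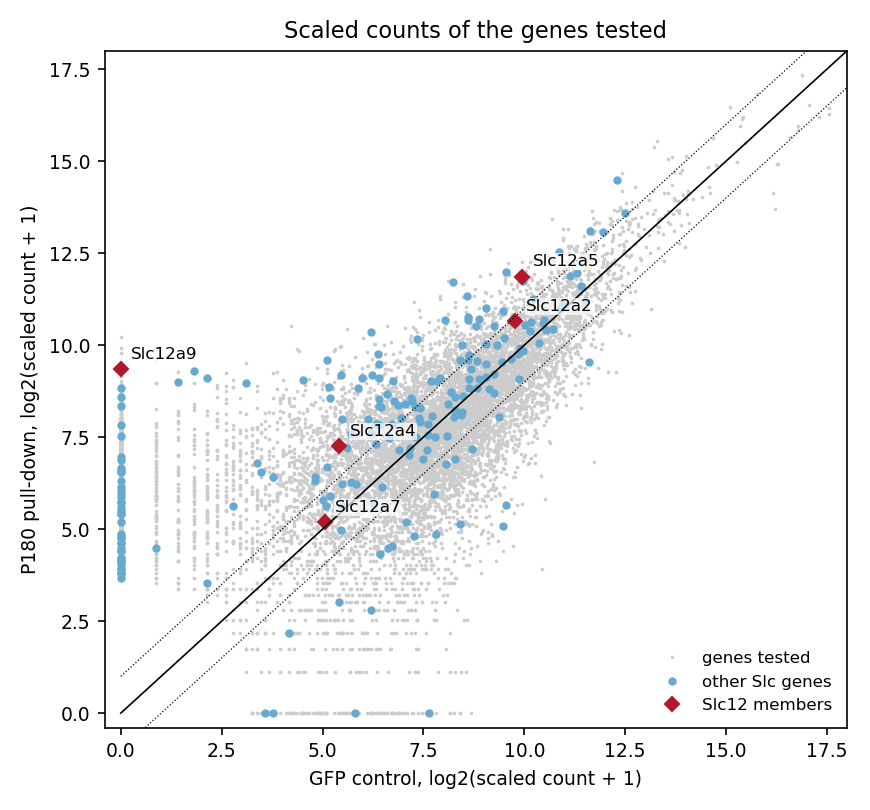
log2 of the scaled count plus 1 in the GFP control (x axis) and the P180 pull-down (y axis) for the 11468 genes tested (grey), with Slc genes in blue and the 5 Slc12 members tested as red diamonds; the solid line marks equal values and the dotted lines a fold of 2. Slc12a9 lies on the left edge near the top of the column of genes at 0 in the GFP control, Slc12a4 and Slc12a5 above the upper dotted line, and Slc12a2 and Slc12a7 between the lines.

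The genes most like each member were found by the distance between log2 values in the 2 libraries, with 1 scaled count added. With 2 values per gene many genes lie close to any other, so the match is a description of level and ratio only. Nearest to Slc12a5 was Usp5, a deubiquitinating enzyme (2972 and 1209 counts), at a distance of 0.096, and among solute carriers Slc38a3, a glutamine transporter (2917 and 1180 counts), at 0.112. Nearest to Slc12a2 was Ca11 (1366 and 1023 counts), at 0.023, and among solute carriers Slc23a2, a vitamin C transporter (1264 and 1218 counts), at 0.252. Slc12a4 lay closest to Mrpl42, a mitochondrial ribosomal protein (124 and 49 counts), and to the cationic amino acid transporter Slc7a3 (125 and 56 counts). Nearest to Slc12a7 was Zscan25 (29 and 38 counts). The gene nearest to Slc12a9 was Urgcp, with 481 counts in the P180 pull-down and 0 in the GFP control. The solute carriers named here come from a search among solute carriers alone.

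Cation-chloride cotransporters are controlled by the WNK kinases, which act through SPAK (Stk39) and OSR1 (Oxsr1) to activate NKCC1 and inhibit the KCCs. These are soluble proteins. Of 10 genes tested, 2 were at least 2-fold higher and 4 at least 2-fold lower, against 40.6% and 19.9% of all genes tested, and the median log2 ratio was -0.42. Wnk1 had 165 counts in the P180 pull-down and 703 in the GFP control (ratio 0.328, 0.275 to 0.389). The adaptor Cab39, which binds SPAK and OSR1, had 558 and 1972 (0.395, 0.359 to 0.434). The KLHL proteins, which present WNK kinases for degradation, were lower as well, with Klhl3 at 25 and 289 counts (0.121, 0.0769 to 0.182) and Klhl2 at 308 and 1265 (0.340, 0.299 to 0.386). Wnk2 was the higher one with counts in both libraries, at 218 and 91 (3.35, 2.61 to 4.32). Wnk3 had 22 and 0, so its call was set by the floor. Stk39 stayed under 2-fold at 423 and 361 counts (1.64, 1.42 to 1.89), and the interval of Oxsr1, 0.957 to 1.84, includes equal values.

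Partners and regulators of KCC2 gave a mixed picture. Of 12 genes tested, 5 were at least 2-fold higher, a share of 41.7% that lies near the 40.6% of all genes tested, and 1 was lower. The median log2 ratio was 0.79. Of the 5, Prkcd, Ppp1r1b and Egr4 had 22, 35 and 14 counts in the P180 pull-down and 0 in the GFP control. Their calls were thus set by the floor. The other higher ones were Egr1, an activity-induced transcription factor (218 and 110 counts), and Capn2, a calpain protease (527 and 310 counts). Neto2, a membrane protein that binds KCC2, had 724 and 1819 counts and a ratio of 0.556 (0.509 to 0.606). Ckb, the brain creatine kinase, had 2848 and 2154 counts (1.85, 1.75 to 1.95). Bdnf, the neurotrophin that lowers KCC2 in mature neurons, was the lower one, with 40 and 211 counts (0.265, 0.184 to 0.373). Rest, which encodes a repressor of neuronal genes that acts on Slc12a5, had 0 counts in both libraries.

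Of 20 other channels and carriers of chloride and bicarbonate tested, 11 were at least 2-fold higher and 2 lower, with a median log2 ratio of 1.64. These shares lie near the 56.4% and 10.4% of the solute carriers, against 40.6% and 19.9% of all genes tested. Among the bicarbonate carriers, Slc4a4 had 322 counts in the P180 pull-down and 42 in the GFP control (ratio 10.7, 7.75 to 15.1), and the chloride-bicarbonate exchanger Slc4a3 had 193 and 101 (2.67, 2.09 to 3.43). Slc4a10, a sodium-dependent bicarbonate carrier of neurons, was lower, with 30 and 158 counts (0.265, 0.173 to 0.394). Of the CLC family, Clcn4 had 240 and 15 counts (22.4, 13.3 to 40.6) and the lysosomal exchanger Clcn7 257 and 83 (4.33, 3.36 to 5.61). The plasma membrane channel Clcn2 was far lower, with 51 and 792 counts (0.0900, 0.0664 to 0.119). Lrrc8a, the required subunit of the volume-regulated anion channel, had 111 and 19 counts (8.16, 4.99 to 14.1), whereas its partner Lrrc8d had 351 and 433 (1.13, 0.981 to 1.31). These lists were chosen with earlier results of the data known, and their medians and counts are descriptions.

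**Figure D4:**
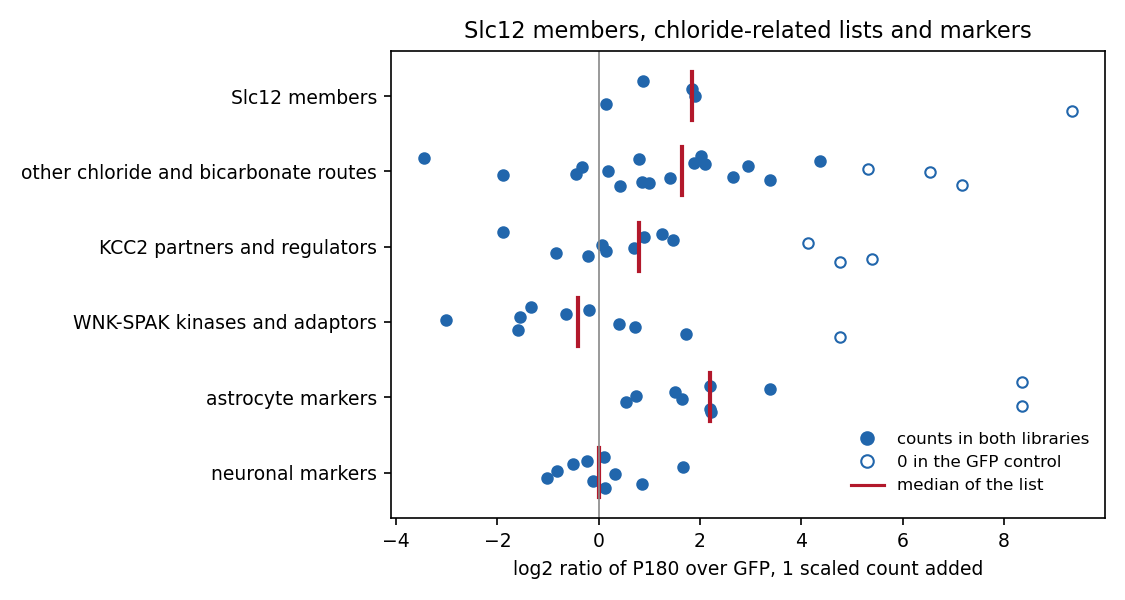
log2 ratio of P180 over GFP, after adding 1 to each scaled count, for each gene tested in 6 lists; open circles are genes at 0 in the GFP control and the red line is the median of the list. The medians are 1.84 for the Slc12 members, 1.64 for other chloride and bicarbonate routes, 0.79 for KCC2 partners and regulators, -0.42 for WNK kinases and adaptors, and 2.19 for astrocyte markers, and that of the neuronal markers lies on the line of equal values.

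Several Slc12 genes are expressed by glia as well as by neurons, and markers of other cells differed between the libraries. The shares to read these counts against are the 40.6% higher and 19.9% lower of all genes tested. In these pull-downs, the number of cells of a type, the RNA per cell and the recovery of a marker's mRNA with P180 cannot be told apart. Neuronal markers were level in sum, at 5265 CPM in the P180 pull-down and 5481 CPM in the GFP control, with 1 of 10 at least 2-fold higher and 1 lower. Single markers were not level, from Snap25 with a ratio of 0.495 (0.449 to 0.546) to Nefm with 3.20 (2.65 to 3.87). The largest terms of the P180 sum were Tubb3 (2516 CPM) and Stmn2 (1766 CPM). Astrocyte markers exceeded 2-fold in 8 of 10 cases, and their summed level was 10288 CPM against 2503 CPM. Aldh1l1 and Slc1a2 were at 0 in the GFP control, and 0 astrocyte markers were at 0 in the P180 pull-down. The oligodendrocyte lineage had 4 of 7 tested markers higher and 1 lower, with sums of 619 CPM and 295 CPM. Sox10 and Mbp were at 0 in the GFP control and Mog in both. Of 8 markers of dividing cells 7 were higher, with sums of 112 CPM and 12.6 CPM. In the GFP control 5 of them were at 0, so the floor set the calls of those 5. Markers of microglia, endothelium and choroid plexus summed to 17.9 CPM in the P180 pull-down and 0 in the GFP control. Those of the choroid plexus, a tissue rich in NKCC1 (Ttr, Folr1 and Kl), were at 0 in both. The part of other cell types in the ratios of Slc12a2, Slc12a4, Slc12a5 and Slc12a9 was not tested.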

How the data were processed

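RNA bound after streptavidin pull-down was counted in 1 P180-GFPbio and 1 GFPbio library. The authors deposited raw counts per gene. By the study's methods, adapted CEL-Seq2 libraries, which tag 3' ends, were demultiplexed with je-suite, aligned to mRatBN7 and counted with STARSolo 2.7.10a, with reads of several equally good positions discarded. Which annotation release was used, and whether reads were collapsed by molecular identifiers, is not given in the sources used here. Amplified reads are not independent molecules. If reads were not collapsed, the intervals are too narrow even for the counting error of molecules. In either case they cover no other source of variation. A further 2 count columns, named as a second library of each group, matched no sample as given here and were left out.

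Depth was 6298343 and 8428358 counts. The 92 spike-in rows (2 and 9 counts) were left out. Genes summing to at least 10 counts were kept and scaled by median-of-ratios size factors. Intervals are exact Poisson for counts, Clopper-Pearson for ratios and exact conditional for quotients of 2 ratios. The study's test with DESeq2 needs replicates and was not repeated. The members and lists were chosen from textbook knowledge with earlier results of these data known. Named were the members, the kidney Slc12 genes, genes of the lists, Rrbp1, EGFP_avitag and the nearest genes of each member whose scaled count averaged at least 20. Wnk4 and Cldn5 of the lists were not analysed. The 6 members matched RefSeq genes of GRCr8 by symbol. Only names and neighbours were taken from it, as its build differs. A planned description of protein features was not made. Alternatives were TMM scaling, total counts with and without mitochondrially encoded genes and EGFP_avitag, size factors without EGFP_avitag, thinning of the deeper library, other count filters, 5 scaled counts added and a floor of 1 count. TMM factors came from edgeR 4.0.16 in R 4.3.3. Python 3.11.15, numpy 2.4.6, pandas 2.3.3 and scipy 1.17.1 were used, and the steps were tested on simulated data. Some genes that these rules would name are not reported here.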

Additional observations from a re-analysis of the deposited data

How the results depend on the processing

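No paired analysis was possible because 1 library of each group could be matched to a sample, and the columns named as a second library of each were not used. The number of members at least 2-fold higher was 3 under every scaling and under thinning, 2 of 4 with at least 10 counts in each library, which removes Slc12a9, and 4 of 6 without a filter, which adds Slc12a8. Scaling by totals without mitochondrially encoded genes and EGFP_avitag shifted the median log2 ratio of all genes by -0.23. It gave ratios of 1.55 for Slc12a2 and 3.19 for Slc12a5, and 37.4% of all genes at least 2-fold higher. With at least 10 counts in each library that share was 22.4%. Slc12a2 stayed under 2-fold in every scaling, at 1.55 to 1.84. The ratio of Slc12a9 against the floor was 193 after thinning of the GFP control and 771 with a floor of 1 count. Its log2 ratio with counts added was 9.35 with 1 and 7.04 with 5. These values depend on the floor or the added count, which stand in for a 0. The counts of Slc12a7 and Slc12a8 limit what can be said of them.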
